A study of Homo sapiens with 12 samples.

Results

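Interferon-stimulated genes are the antiviral and growth-restraining genes that a cell turns on when interferon reaches its surface. Here 35 genes of this kind, chosen as known interferon targets, were taken by name from the 35741 genes of the count table. They cover the pathway's own transcription factors (STAT2, IRF1, IRF7, IRF9), its RNA sensors (IFIH1, DDX58, DDX60) and the effectors. The set, and the further gene lists used below, were chosen with earlier results of these data known. Their shares beside those of all genes are therefore descriptions only. All 35 names were found, and 30 of the 35 had enough reads to be tested. The cells were U87, an established human glioblastoma line, profiled by poly(A) RNA sequencing. The 12 libraries fall into 4 groups of 3. Control cells were untreated and carry the label WT. Cells of the PNA-10b group were given sgPNA-10b at 150 nM, those of the PNA-21 group sgPNA-21 at 150 nM, and those of the PNA-10b+21 group both at 150 nM each, in every case in nanoparticles (BNP in the labels) and for 72 h. These groups are labelled as knockdowns of miR-10b, miR-21 or both. A peptide nucleic acid (PNA) is a synthetic DNA mimic, and an anti-seed PNA pairs with the seed of a microRNA, the short stretch through which it recognises its targets. The study asked how the mRNA profile changes when either microRNA, or both, is blocked. An arm with empty nanoparticles or with a PNA of unrelated sequence is not described in the labels, so the agents and their carrier cannot be told apart. Replicates are 3 libraries of 1 cell line, and nothing in the labels says that they came from separate cultures, so the p-values measure the spread between libraries only.

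In the textbook pathway, interferon receptors activate the kinases JAK1 and TYK2. These phosphorylate STAT proteins, among them STAT2, which joins IRF9 in a complex that enters the nucleus and binds interferon-stimulated response elements (ISREs) in gene promoters. Other STAT dimers bind gamma-activated sites (GAS), for example ahead of IRF1, and IRF proteins can hold ISRE-driven genes on at a low level without added interferon.

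The promoters show that DNA context. A RefSeq window of 300 bases (GRCh38.p14), from 250 before to 50 after an annotated start site, was found for 29 of the 35 genes, in 39 windows. None was used for IRF7, IFIT2, MX2, OAS2, OASL and USP18. The ISRE core was searched as GAAANNGAAA and the GAS core as TTCNNNGAA, on both strands. Of the 29 genes, 19 held an ISRE-like match and 9 a GAS-like match. Among all 34961 windows of the reference table the shares were 3.58% for the ISRE-like and 7.66% for the GAS-like letters. Among the tested genes of the whole table they were 4.05% and 8.69%. In 4 of the 39 windows an ISRE-like match overlapped a GAS-like one. Below are the windows of the genes that the results turn on, first HERC5 and IFI44L, which were higher in treated cells, and then IFIT1, SAMD9 and SAMD9L, which were lower. Each is written 5′ to 3′ along the gene's own strand, with ISRE-like matches in capitals.
HERC5, chr4:88456869-88457168 (+): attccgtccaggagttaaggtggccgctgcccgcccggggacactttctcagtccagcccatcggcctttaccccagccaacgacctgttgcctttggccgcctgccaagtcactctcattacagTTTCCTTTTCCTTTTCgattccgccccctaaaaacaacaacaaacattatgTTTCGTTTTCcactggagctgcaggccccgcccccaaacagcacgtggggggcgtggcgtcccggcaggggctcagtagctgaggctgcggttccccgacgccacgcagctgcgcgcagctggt
IFI44L, chr1:78620198-78620497 (+): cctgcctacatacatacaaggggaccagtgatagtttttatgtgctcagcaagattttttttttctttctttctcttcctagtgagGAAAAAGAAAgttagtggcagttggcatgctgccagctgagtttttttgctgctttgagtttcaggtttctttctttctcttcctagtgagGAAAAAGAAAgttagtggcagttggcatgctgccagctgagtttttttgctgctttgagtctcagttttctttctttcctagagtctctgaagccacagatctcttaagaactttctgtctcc
IFIT1, chr10:89392373-89392672 (+): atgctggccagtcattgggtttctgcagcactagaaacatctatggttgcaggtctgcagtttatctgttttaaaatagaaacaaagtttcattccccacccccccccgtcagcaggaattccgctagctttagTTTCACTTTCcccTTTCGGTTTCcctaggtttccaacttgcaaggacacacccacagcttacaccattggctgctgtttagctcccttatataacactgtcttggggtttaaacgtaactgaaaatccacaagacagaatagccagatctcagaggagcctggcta
SAMD9, chr7:93117930-93118229 (-): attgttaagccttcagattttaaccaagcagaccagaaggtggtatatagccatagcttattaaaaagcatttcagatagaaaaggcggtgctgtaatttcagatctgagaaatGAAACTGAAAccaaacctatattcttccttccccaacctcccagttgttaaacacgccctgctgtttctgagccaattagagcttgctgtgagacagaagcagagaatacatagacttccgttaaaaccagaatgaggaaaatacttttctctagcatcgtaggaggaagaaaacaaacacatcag
SAMD9L, chr7:93148336-93148635 (-): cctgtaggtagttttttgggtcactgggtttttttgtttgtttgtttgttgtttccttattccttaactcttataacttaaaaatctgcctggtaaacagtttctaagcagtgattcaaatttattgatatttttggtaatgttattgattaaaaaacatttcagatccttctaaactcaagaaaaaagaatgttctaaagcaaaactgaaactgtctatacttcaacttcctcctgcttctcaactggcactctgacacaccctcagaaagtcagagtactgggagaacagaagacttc

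The HERC5 window held 3 ISRE-like matches, the nearest from 74 to 65 bases before the start site, and the other matches overlapped each other between 125 and 110 bases before it. IFI44L held a match from 164 to 155 and one from 73 to 64 bases before the start. IFIT1 carried a close pair at 116 to 107 and 103 to 94 bases before the start. SAMD9 had a single match at 136 to 127, and the SAMD9L window held none of these letters. Genes of both directions held the letters. All 3 genes that rose had an ISRE-like match, and so did 6 of the 10 genes with a window that fell (DDX60, IFIH1, IFIT1, IFIT3, PARP14 and SAMD9). The 4 without one were IRF1, SAMD9L, STAT2 and XAF1. Of the genes tested but not called in PNA-21 or PNA-10b+21 against control, 7 of 12 with a window held the match. A match is a description of the sequence, not of a bound factor.

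**Figure D1:**
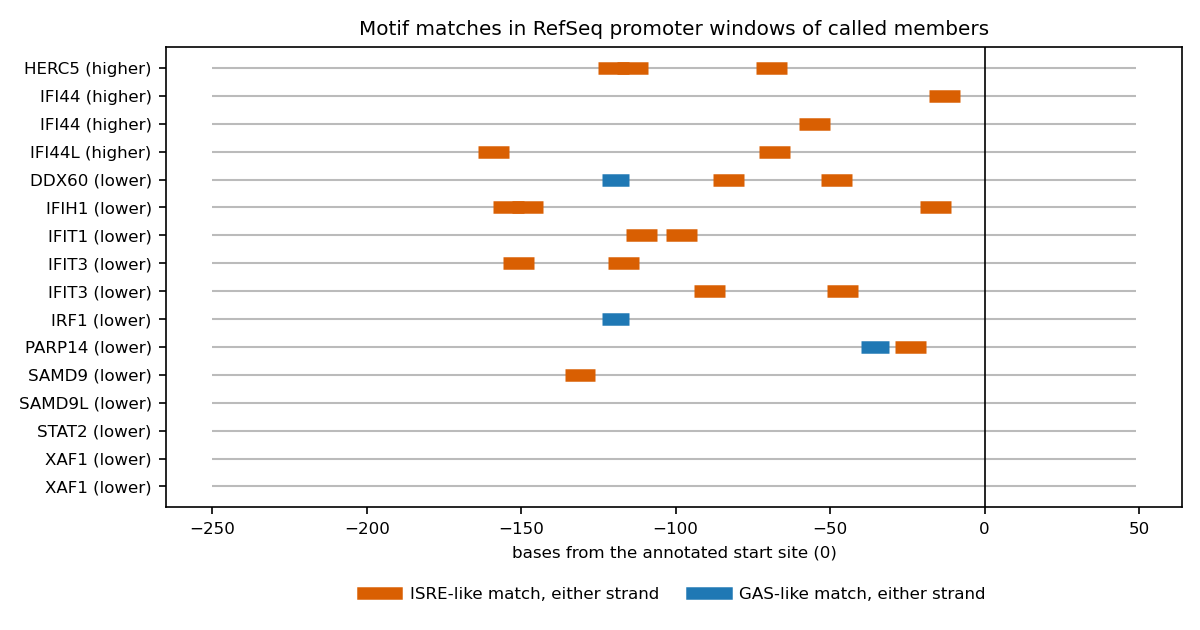
Positions of ISRE-like (orange) and GAS-like (blue) matches, on either strand, in the RefSeq promoter windows of the genes called higher or lower in PNA-21 or PNA-10b+21 cells; the x axis is the distance in bases from the annotated start site at 0, and each grey line is 1 window. Matches lie before the start site in every window that has one, and the SAMD9L, STAT2 and XAF1 windows have none.

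Of the microRNAs blocked, the reference table holds miR-21-5p, encoded at chr17:59841273-59841294 (+), shown here because its seed is what sgPNA-21 is designed against, with bases 2 to 8 in capitals.
miR-21-5p: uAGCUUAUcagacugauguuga
A perfect 7-base match to that seed, ATAAGCT, occurs in the longest annotated 3′ UTR of 1269 of 12234 tested genes, or 10.4%. Among the 30 tested interferon-stimulated genes it occurs in 2, OASL with 1 site and SAMD9 with 2. The SAMD9 sites are printed because that gene changed, with the seed match in capitals.
SAMD9, chr7:93101019-93101048 (-): aagttagtgtaATAAGCTggctacacagaa
SAMD9, chr7:93099553-93099582 (-): ctccataacttATAAGCTcactctttattg
SAMD9 was lower, not higher, in both groups that received sgPNA-21 (values below), and OASL did not pass the test in either. RSAD2, too low to test, also carries the match.

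Untreated U87 cells expressed most of these genes without added interferon. Per length of transcript (RPKM, reads scaled to summed exon length and library depth), the highest in control cells was STAT2 at 33.2 ± 2.00 (SD, n = 3), followed by IFI44 at 29.7 ± 0.777 and IFI6 at 17.5 ± 1.04. ISG15, the ubiquitin-like modifier of the pathway, stood at 10.3 ± 1.10. A broad middle group from IFI35 (8.33 RPKM) to IFIT1 (2.31 RPKM) held the helicase DDX58 (RIG-I), IFIT3, IFIT5, PARP9, PARP14, SAMD9, SAMD9L, HERC5 and IRF1, with neighbours often within an SD of each other. MX1, a classic marker of strong interferon exposure, was at only 0.293 ± 0.0305 RPKM, below MX2 at 1.01 ± 0.0527. The viperin gene RSAD2 had 5 reads in all 12 libraries and IFI27 had 1. IRF7, the factor that amplifies the response, had 11 reads, the nucleotide kinase CMPK2 21 and BST2 (tetherin) 60. These 5 genes were too low to test. The zero counts allow, at 3 reads per group, up to 0.0663 CPM (reads scaled to library depth) of RSAD2 in control cells and up to 0.0639 CPM in PNA-10b cells. Together the 35 genes took between 0.0760% and 0.0857% of all reads, the lowest share in a PNA-21 library and the highest in a control library.

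**Figure D2:**
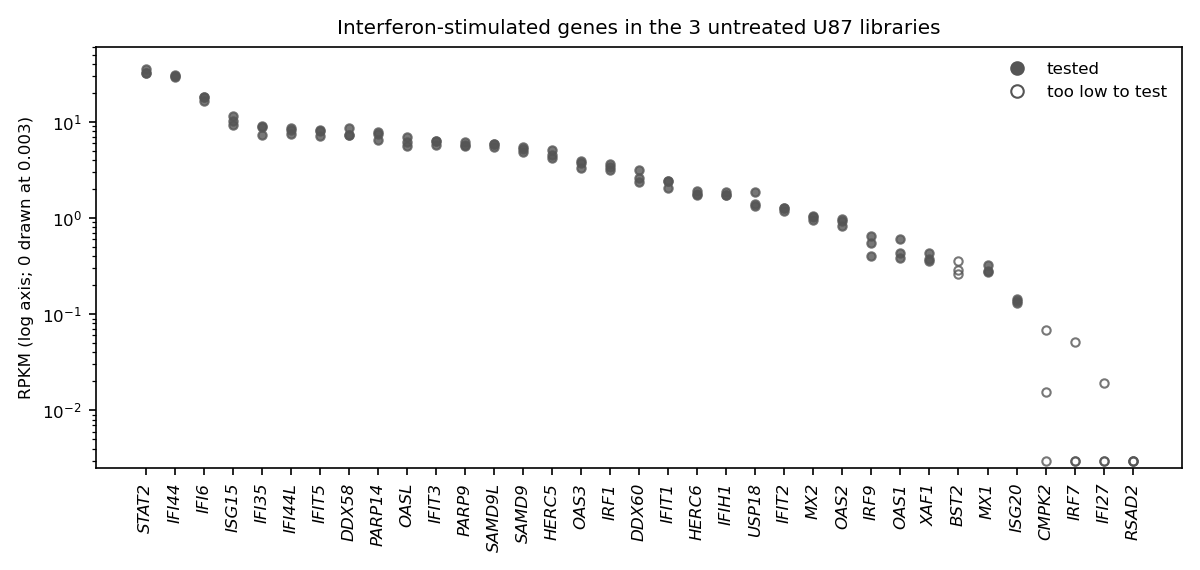
Level of each of the 35 genes in the 3 untreated libraries, in RPKM on a log axis, ordered by mean; filled points are tested genes, open points genes too low to test, and a 0 is drawn at the foot of the axis. STAT2 and IFI44 stand highest, and CMPK2, IRF7, IFI27 and RSAD2 sit at or near 0.

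After treatment the set moved in both directions, with more genes lower than higher. In PNA-21 cells 3 of the 30 tested genes rose (HERC5, IFI44L, IFI44) and 11 fell at an adjusted p under 0.05, against control, as judged by edgeR's quasi-likelihood test. That is 10.0% higher and 36.7% lower, where 15.2% of all 15715 tested genes rose and 14.6% fell. The same 3 genes rose and 10 fell in PNA-10b+21 cells, or 33.3% lower, against 13.6% higher and 13.4% lower over all genes. In PNA-10b cells only SAMD9L and IFIT1 fell and none rose, or 6.67% and 0%, against 2.75% higher and 3.74% lower over all genes. A further 9 genes of the set were lower there at an unadjusted p under 0.05 and none was higher, where 20.6% of all genes were at such a p in either direction, and DESeq2 also called none higher. The count over all genes moved most without PNA-10b replicate 2, when 98 genes in place of 432 were higher and 208 in place of 587 lower, while SAMD9L and IFIT1 were still called. Without control replicate 1 the counts were 178 higher and 292 lower, and without control replicate 3 they were 152 and 265. The median log2 change over the 30 genes was -0.12 with sgPNA-10b, -0.19 with sgPNA-21 and -0.13 with both. Over all tested genes the medians were -0.0015, -0.0062 and -0.0033. All 3 comparisons share the same control libraries, so they are not independent of each other. In RNA from whole cultures, fewer cells expressing a gene and less RNA per cell cannot be told apart. For genes of the set called against control, the libraries of the compared groups did not overlap in any case. With 3 libraries per group a small p favours such separation, so it is no further support for the calls. Genes that were not called often lay apart from control too. In PNA-10b cells this held for STAT2, MX2, IFIT3, IFIH1, MX1, OAS1, DDX60, XAF1, SAMD9 and PARP9. How often it holds over all tested genes was not counted.

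**Figure D3:**
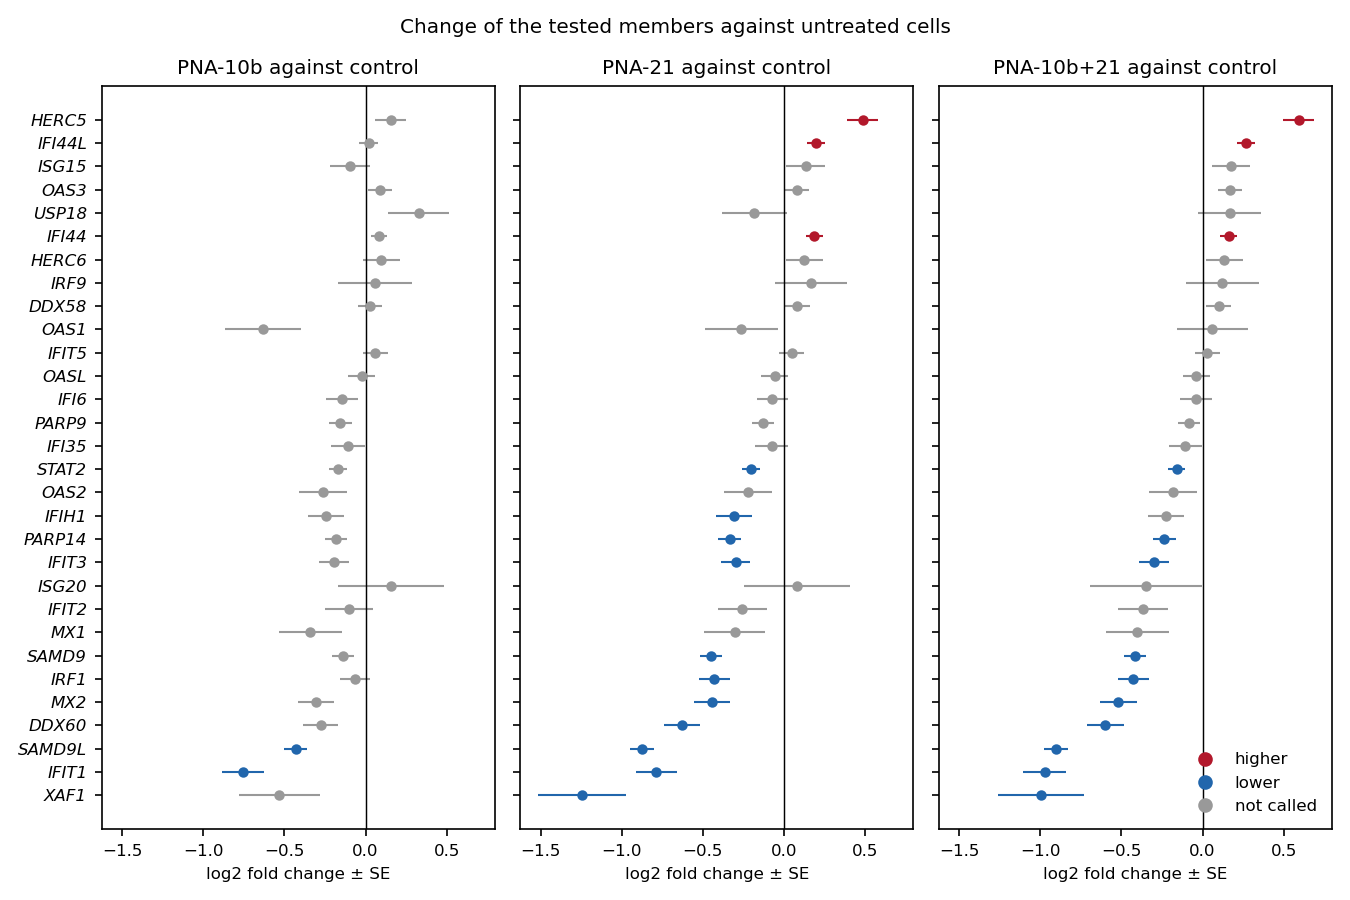
Log2 fold change against untreated cells, with its standard error, of the 30 tested genes in each treatment (3 libraries per group), red where higher and blue where lower at adjusted p under 0.05 and grey otherwise. XAF1, IFIT1 and SAMD9L lie farthest to the left and HERC5 farthest to the right in both groups that received sgPNA-21.

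**Figure D4:**
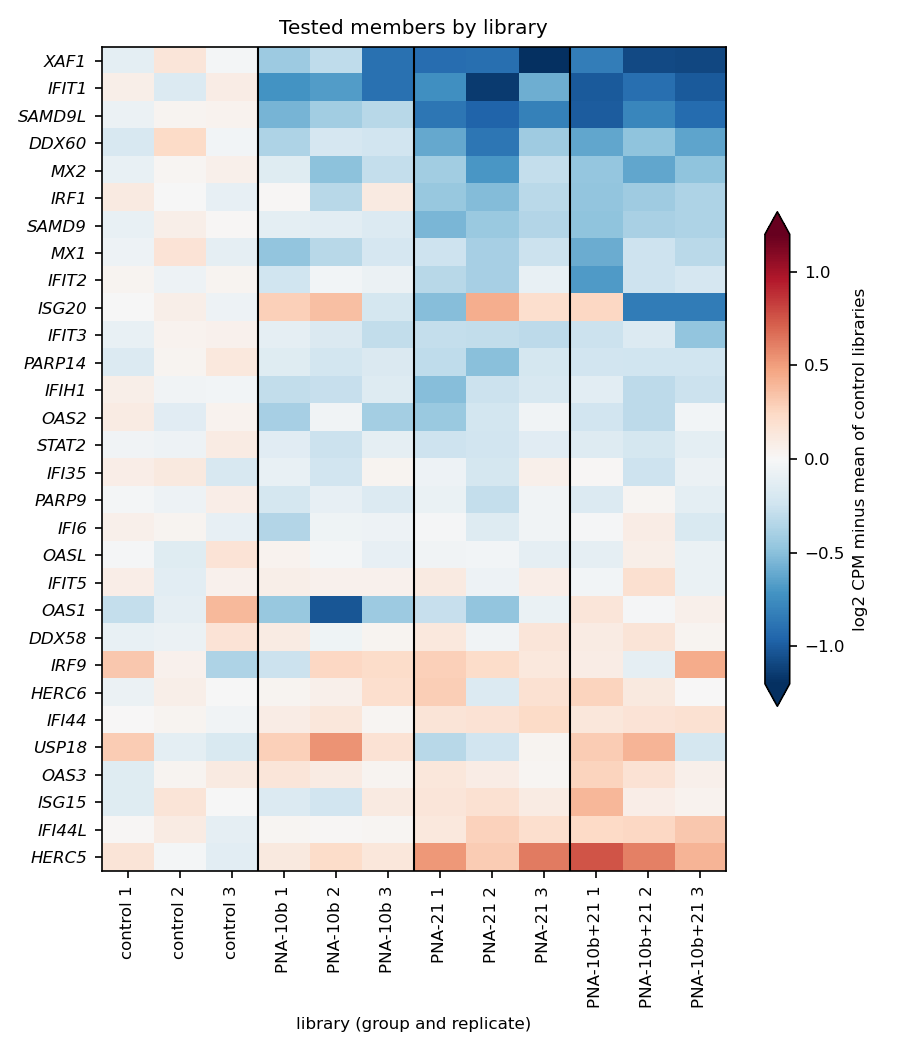
Log2 CPM of the 30 tested genes in each library minus the mean of the control libraries, ordered by the mean difference; values beyond the colour scale take its end colour, as for XAF1 in PNA-21 replicate 3. The top rows, XAF1, IFIT1 and SAMD9L, are blue in every treated library, and HERC5 at the foot is red in every library that received sgPNA-21.

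SAMD9L had the smallest adjusted p of the set in both groups with sgPNA-21, and its neighbour SAMD9 fell with it. The genes lie side by side on chromosome 7 (hg38 93130055 to 93148369 and 93099513 to 93118023, both on the minus strand) and encode related proteins that restrict poxvirus growth and cell proliferation. In control libraries SAMD9L stood at 39.0, 42.0 and 42.2 CPM. It was at 27.9, 30.6 and 32.6 CPM in PNA-10b, at 22.4, 21.1 and 23.3 CPM in PNA-21 and at 20.5, 23.8 and 21.7 CPM in PNA-10b+21 libraries. Each treated group thus lay below every control library, and both groups with sgPNA-21 lay below every PNA-10b library. The log2 change against control was -0.43 ± 0.07 (SE) for PNA-10b (adjusted p = 0.00103), -0.88 ± 0.07 for PNA-21 (adjusted p = 4.6e-08) and -0.90 ± 0.07 for PNA-10b+21 (adjusted p = 2.83e-08). SAMD9 stood at 33.4, 37.3 and 35.8 CPM in control libraries and at 32.7, 32.5 and 31.7 CPM in PNA-10b libraries. It was at 24.2, 26.0 and 27.7 CPM in PNA-21 and at 25.4, 27.1 and 27.5 CPM in PNA-10b+21 libraries. SAMD9 fell by 0.45 ± 0.07 in PNA-21 (adjusted p = 5.58e-05) and by 0.42 ± 0.07 in PNA-10b+21 cells (adjusted p = 0.000125), while its PNA-10b value, -0.14 ± 0.07, did not pass (adjusted p = 0.253).

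**Figure D5:**
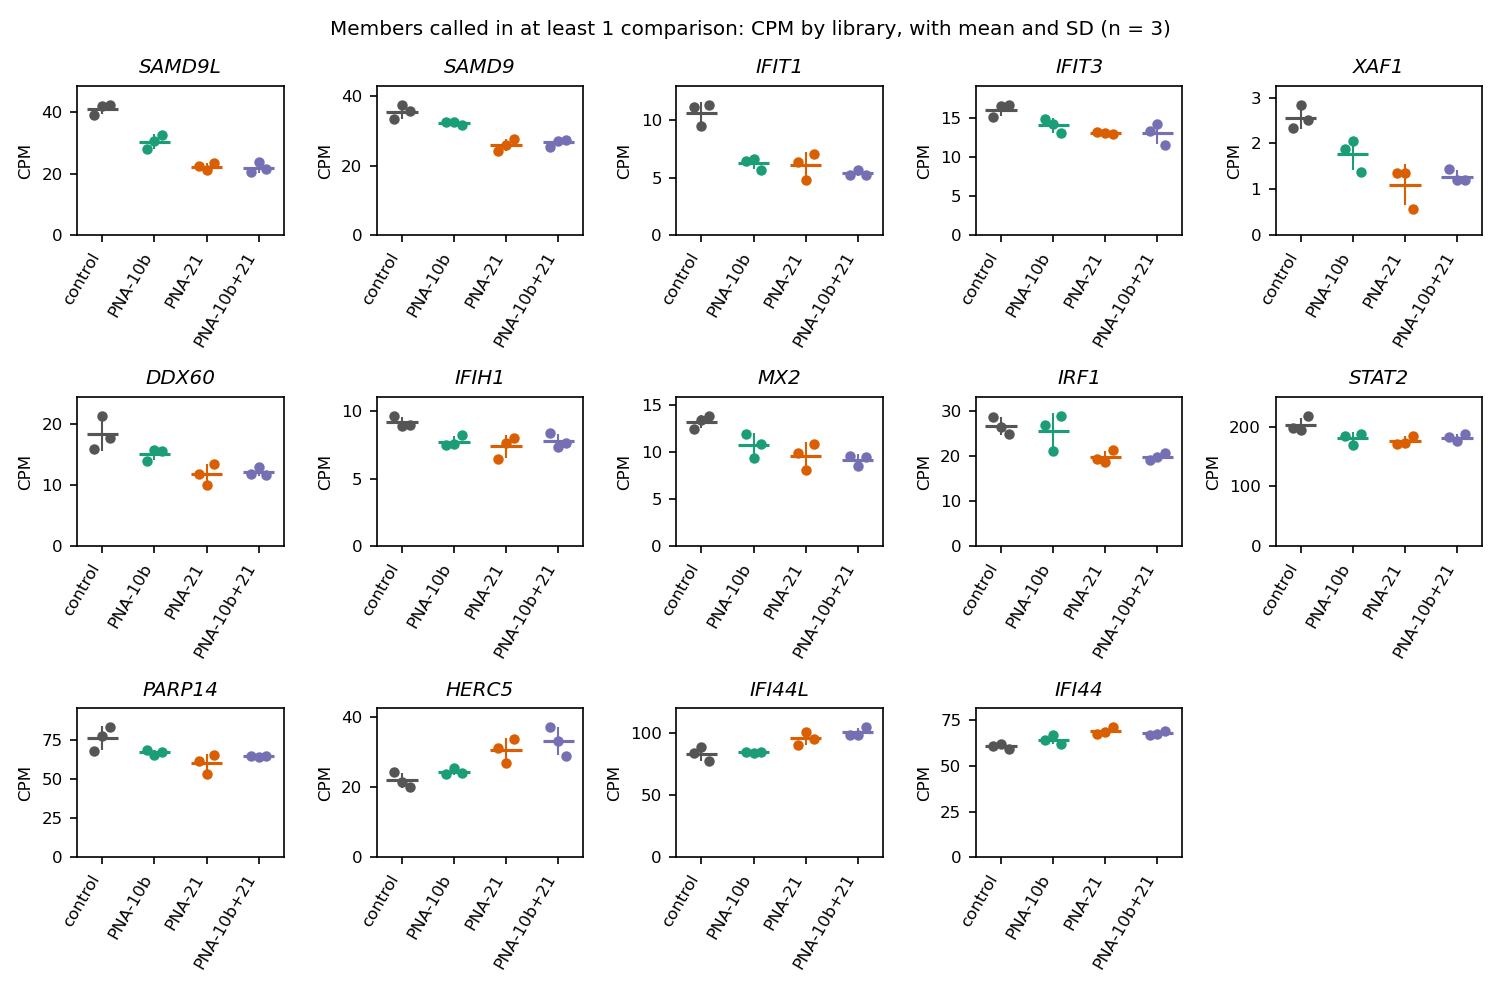
CPM of each of the 14 genes called in at least 1 comparison, by library (points), with the group mean and SD (n = 3) as bars; axes start at 0. For SAMD9L the control libraries lie between 39.0 and 42.2 CPM and the PNA-21 and PNA-10b+21 libraries between 20.5 and 23.8 CPM, whereas HERC5, IFI44L and IFI44 are higher in those groups than in control.

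The IFIT family, whose proteins bind viral RNA and block its translation, split. Its members IFIT1, IFIT2, IFIT3 and IFIT5 lie in 1 cluster on chromosome 10. IFIT1 (89392546 to 89406486) measured 11.1, 9.49 and 11.3 CPM in control libraries. It fell to 6.45, 6.66 and 5.69 CPM with sgPNA-10b, to 6.38, 4.78 and 7.08 CPM with sgPNA-21 and to 5.27, 5.66 and 5.27 CPM with both. Treated libraries of every group lay below the lowest control library, and the PNA-21 libraries spanned those of the other treated groups. Its log2 change was -0.76 ± 0.13 in PNA-10b (adjusted p = 0.00127), -0.79 ± 0.13 in PNA-21 (adjusted p = 0.000119) and -0.97 ± 0.13 in PNA-10b+21 cells (adjusted p = 1.56e-05). IFIT3 went from 15.1, 16.6 and 16.6 CPM in control to 13.2, 13.1 and 12.9 CPM in PNA-21 and 13.4, 14.3 and 11.6 CPM in PNA-10b+21 libraries, with 14.9, 14.3 and 13.1 CPM in PNA-10b. That was a fall of 0.30 ± 0.09 in both groups with sgPNA-21 (adjusted p = 0.0165 and 0.0185). Both IFIT3 calls were lost with DESeq2 (log2 change -0.29), without control replicate 2 or 3 (-0.28), and the PNA-10b+21 call also without PNA-10b+21 replicate 3 (-0.22). IFIT2 pointed down without passing (-0.26 ± 0.15 in PNA-21, adjusted p = 0.213, and -0.37 ± 0.15 in PNA-10b+21, adjusted p = 0.0817), and it shares exonic bases with AL353751.1 on its own strand and LIPA on the other. IFIT5 stayed near control, at 0.05 ± 0.08 and 0.03 ± 0.08.

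XAF1 fell in both groups with sgPNA-21. XAF1, a partner of the apoptosis inhibitor XIAP that favours cell death, is a low gene here, with a mean of 26.0 reads per library. It read 2.35, 2.83 and 2.5 CPM in control, 1.88, 2.06 and 1.37 CPM in PNA-10b, 1.36, 1.37 and 0.581 CPM in PNA-21 and 1.43, 1.2 and 1.19 CPM in PNA-10b+21 libraries. Its log2 change was -1.25 ± 0.27 in PNA-21 (adjusted p = 0.00156) and -1.0 ± 0.26 in PNA-10b+21 cells (adjusted p = 0.00747), and the PNA-10b value of -0.53 ± 0.25 did not pass (adjusted p = 0.236). PNA-21 replicate 3 stood below the other libraries, and without it the PNA-21 change was -0.91. XAF1 shares exonic bases with the antisense gene PRAL, and whether the counting used strand is not stated in the labels.

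Among the RNA sensors only part of the group changed. DDX60, a helicase linked to RIG-I signalling, fell from 15.8, 21.2 and 17.8 CPM in control to 11.9, 9.97 and 13.5 CPM in PNA-21 and 11.7, 13.0 and 11.7 CPM in PNA-10b+21 libraries. PNA-10b libraries lay between, at 14, 15.8 and 15.5 CPM. The log2 change was -0.63 ± 0.11 in PNA-21 (adjusted p = 0.000282) and -0.60 ± 0.11 in PNA-10b+21 cells (adjusted p = 0.000469). IFIH1 (MDA5), the sensor of long double-stranded RNA, was at 9.59, 8.90 and 8.96 CPM in control and at 7.46, 7.54 and 8.19 CPM in PNA-10b libraries. It was at 6.43, 7.65 and 8.03 CPM in PNA-21 and at 8.37, 7.36 and 7.66 CPM in PNA-10b+21 libraries. Only the PNA-21 change passed, at -0.31 ± 0.11 (adjusted p = 0.0379). That call was lost in 8 settings, namely without the filter on low counts (-0.29), with DESeq2 (-0.30), in a fit of the compared groups alone (-0.31), without any one of the control replicates 1 (-0.28), 2 (-0.34) and 3 (-0.33), and when PNA-21 replicate 1 (-0.22) or 2 (-0.33) was left out. DDX58, which senses short RNA with a triphosphate end, did not pass in either group (0.08 and 0.10).

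Of the transcription factors, IRF1 and STAT2 fell. IRF1, an early target of the pathway that itself drives interferon-stimulated genes, read 28.6, 26.5 and 24.8 CPM in control and 26.8, 21.2 and 28.7 CPM in PNA-10b libraries. With sgPNA-21 it read 19.4, 18.6 and 21.3 CPM, and with both agents 19.2, 19.8 and 20.6 CPM. PNA-10b libraries overlapped control, while both groups with sgPNA-21 lay below every control library. The fall was 0.43 ± 0.10 in each of them (adjusted p = 0.00195 and 0.00219). STAT2, the highest of the set, moved less, from 197, 195 and 217 CPM in control to 184, 169 and 188 CPM in PNA-10b, 171, 173 and 185 CPM in PNA-21 and 182, 175 and 187 CPM in PNA-10b+21 libraries. STAT2 fell by 0.20 ± 0.05 in PNA-21 (adjusted p = 0.00831) and by 0.16 ± 0.05 in PNA-10b+21 cells (adjusted p = 0.0344). Without control replicate 3 neither STAT2 change passed (-0.16 and -0.11), and the PNA-10b+21 call was also lost without PNA-10b+21 replicate 1 (-0.16) or 2 (-0.14) and without the filter on low counts (-0.15). IRF9, their DNA-binding partner, was low and did not pass (0.17 ± 0.22 and 0.12 ± 0.22). IRF1 shares exonic bases with C5orf56 on the opposite strand, and IRF9 with AL136295.5 on its own.

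MX2 and PARP14 complete the genes that fell. MX2, a dynamin-like GTPase that blocks viral entry into the nucleus, measured 12.5, 13.4 and 13.8 CPM in control and 12, 9.43 and 10.9 CPM in PNA-10b libraries. It measured 9.92, 8.13 and 10.9 CPM in PNA-21 and 9.57, 8.57 and 9.48 CPM in PNA-10b+21 libraries, a log2 change of -0.45 ± 0.11 (adjusted p = 0.00472) and -0.52 ± 0.11 (adjusted p = 0.00171). MX1, its cytoplasmic relative, pointed the same way without passing, at -0.31 ± 0.19 and -0.40 ± 0.19 (adjusted p = 0.246 and 0.134). PARP14, an ADP-ribosyltransferase, read 68.1, 77.7 and 83.2 CPM in control, 68.8, 65.3 and 67.5 CPM in PNA-10b, 61.5, 53.6 and 65.7 CPM in PNA-21 and 64.8, 64.6 and 64.6 CPM in PNA-10b+21 libraries. PARP14 fell by 0.33 ± 0.07 in PNA-21 (adjusted p = 0.00129) and by 0.24 ± 0.07 in PNA-10b+21 cells (adjusted p = 0.016), the second call being lost without control replicate 3 (-0.18). PARP9, another member of that enzyme family, did not pass in either group (-0.13 and -0.08), and it shares exonic bases with DTX3L on the opposite strand.

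Against this direction, HERC5 and the IFI44 pair rose. HERC5, the ligase that attaches ISG15 to newly made proteins (chromosome 4, 88457117 to 88506163), stood at 24.3, 21.4 and 20.1 CPM in control and at 23.8, 25.5 and 24.1 CPM in PNA-10b libraries. It reached 31.3, 27.0 and 33.6 CPM in PNA-21 and 37.0, 33.3 and 29 CPM in PNA-10b+21 libraries, above every control and PNA-10b library. The log2 change against control was 0.48 ± 0.09 (adjusted p = 0.00068) and 0.59 ± 0.09 (adjusted p = 9.14e-05). ISG15, HERC6 and USP18 did not pass in either group. ISG15 itself was at 0.13 ± 0.12 and 0.18 ± 0.12, the related ligase gene HERC6 at 0.12 ± 0.11 and 0.13 ± 0.11. USP18, which removes ISG15 and damps receptor signalling, was at -0.18 ± 0.20 and 0.17 ± 0.19.

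IFI44L and IFI44 are neighbouring genes on chromosome 1 (78619922 to 78646145 and 78649796 to 78664078). Their protein products are cytoplasmic and their function is less well understood. IFI44L stood at 83.6, 88.6 and 77.2 CPM in control, 84.6, 83.9 and 84.6 CPM in PNA-10b, 90.4, 101 and 95.2 CPM in PNA-21 and 98.2, 98.3 and 104 CPM in PNA-10b+21 libraries. It rose by 0.19 ± 0.06 (adjusted p = 0.0119) and 0.27 ± 0.06 (adjusted p = 0.00121) on the log2 scale. The first of these calls was lost without control replicate 3 (0.14) or PNA-21 replicate 2 (0.16). IFI44 read 60.7, 62.2 and 59.0 CPM in control, 64.3, 66.7 and 61.7 CPM in PNA-10b, 67.5, 68.5 and 71.0 CPM in PNA-21 and 66.7, 67.7 and 68.9 CPM in PNA-10b+21 libraries. Its rise was small, 0.19 ± 0.05 (adjusted p = 0.00885) and 0.16 ± 0.05 (adjusted p = 0.0244). Every library of both groups lay above every control library. The PNA-10b+21 call was lost without the filter on low counts (0.17) and without control replicate 1 (0.16) or 3 (0.14) or PNA-10b+21 replicate 1 (0.17), 2 (0.16) or 3 (0.14).

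The remaining tested genes did not pass in any comparison. None of OAS1, OAS2 and OAS3, whose products make short oligoadenylates that activate RNase L, was called, and neither was OASL. OAS1 was low and spread widely, at 1.88, 2.12 and 2.99 CPM in control and 1.67, 1.12 and 1.69 CPM in PNA-10b libraries (log2 change -0.63 ± 0.24, adjusted p = 0.121). It read 1.89, 1.64 and 2.17 CPM in PNA-21 and 2.52, 2.27 and 2.39 CPM in PNA-10b+21 libraries (-0.26 ± 0.22 and 0.06 ± 0.22). OAS1 shares exonic bases with AC004551.1 on the opposite strand. OAS2, OAS3 and OASL were at -0.22, 0.08 and -0.06 in PNA-21 cells. IFI6, a survival-promoting membrane protein and the third highest of the set per length, read 15.8, 15.5 and 14.1 CPM in control and 11.9, 14.6 and 14.5 CPM in PNA-10b libraries. It read 14.9, 13.6 and 14.7 CPM in PNA-21 and 15, 16.1 and 13.3 CPM in PNA-10b+21 libraries, so that its groups overlapped (-0.07 and -0.04, adjusted p = 0.616 and 0.798). IFI35 was at -0.08 and -0.11. The exonuclease gene ISG20 had 15.8 reads per library on average, and its standard errors of 0.33 to 0.35 leave room for sizeable changes that could not be detected at this depth.

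The treatments were also set against each other. Between PNA-21 and PNA-10b cells, HERC5 was higher and SAMD9L, SAMD9 and IRF1 were lower with sgPNA-21, or 3.33% and 10.0% of the 30 genes, against 2.91% higher and 3.88% lower over all genes. SAMD9L differed by -0.45 ± 0.08 (adjusted p = 0.000854), SAMD9 by -0.31 ± 0.07 (adjusted p = 0.00768), IRF1 by -0.36 ± 0.10 (adjusted p = 0.0244) and HERC5 by 0.33 ± 0.09 (adjusted p = 0.0363). IRF1 is the exception in that a PNA-10b library (21.2 CPM) lay within the PNA-21 range. Its call was lost without PNA-10b replicate 1 (-0.33) or 3 (-0.27) or PNA-21 replicate 1 (-0.35) or 2 (-0.32). The HERC5 call was lost without PNA-10b replicate 1 (0.31), 2 (0.36) or 3 (0.31) or PNA-21 replicate 1 (0.32) or 3 (0.25), and the SAMD9 call without PNA-21 replicate 1 (-0.26). IFIT1, in contrast, differed by only -0.03 between the single agents (adjusted p = 0.926), with means of 6.27 ± 0.511 CPM in PNA-10b and 6.08 ± 1.18 CPM in PNA-21 cells (SD, n = 3).

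Between PNA-10b+21 and PNA-10b cells HERC5 and IFI44L were higher and SAMD9L, SAMD9 and IRF1 lower, or 6.67% and 10.0%, against 4.61% and 5.1% over all genes. SAMD9L differed by -0.47 ± 0.08 (adjusted p = 0.000404), HERC5 by 0.44 ± 0.09 (adjusted p = 0.00465), IFI44L by 0.25 ± 0.06 (adjusted p = 0.00683), SAMD9 by -0.28 ± 0.07 (adjusted p = 0.013) and IRF1 by -0.36 ± 0.10 (adjusted p = 0.0193). Only the SAMD9L and IFI44L calls held without each library in turn. Without PNA-10b+21 replicate 1 the HERC5 (0.34), SAMD9 (-0.25) and IRF1 (-0.34) calls were lost, and IRF1 was also lost without PNA-10b+21 replicate 2 (-0.36) or PNA-10b replicate 1 (-0.33) or 3 (-0.27).

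Adding sgPNA-10b to sgPNA-21 left no gene of the set past the threshold. Between PNA-10b+21 and PNA-21 cells 0 of 30 genes were called in either direction, and 0% of all genes were called higher and 0% lower. None of the 30 reached an unadjusted p under 0.05, while 8.62% of all genes did, and DESeq2 called none of the 30. SAMD9L differed by -0.03 ± 0.08 (adjusted p = 0.956), and IFIT1 by -0.19 ± 0.14 (adjusted p = 0.784). The interaction term asks whether the change with both agents departs from the sum of the single changes on the log2 scale. It was called for SAMD9L alone, 3.33% of the genes higher and 0% lower, against 1.48% and 1.64% over all genes. Its value for SAMD9L was 0.40 ± 0.11 (adjusted p = 0.0423), so that the drop with both agents was smaller than the single drops added together. That call did not hold without control replicate 1 (0.44) or 3 (0.39), PNA-10b replicate 1 (0.35) or 2 (0.41), PNA-21 replicate 1 (0.41) or 2 (0.37), or PNA-10b+21 replicate 2 (0.35) or 3 (0.41). IFIT1 (0.57 ± 0.19, adjusted p = 0.101) and OAS1 (0.96 ± 0.32, adjusted p = 0.102) had larger terms that did not pass.

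The rest of the pathway was read from further gene lists, 103 genes of which 80 had a row in the table. Of the 21 interferon ligands 1 was matched, IFNL1, with 1 read in all libraries. Of the 6 interferon receptors 5 were tested and none was called in any of the 3 comparisons against control, the smallest adjusted p being 0.135 for IFNAR1. Of 5 tested kinases and STATs none was called in PNA-10b cells, where 2.75% of all genes rose and 3.74% fell. Both groups with sgPNA-21 had 2 that fell, or 40% of the list, where 14.6% and 13.4% of all genes fell. JAK1 fell in both groups (-0.17 ± 0.05 and -0.18 ± 0.05, adjusted p = 0.0106 and 0.011). STAT3 fell in PNA-21 cells (-0.19 ± 0.06, adjusted p = 0.0212), where its libraries overlapped control, and JAK2 in PNA-10b+21 cells (-0.23 ± 0.08, adjusted p = 0.0272).

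Of 13 tested sensors and adaptors 1 rose and none fell in PNA-10b, 1 rose and 4 fell in PNA-21, and none rose and 4 fell in PNA-10b+21 cells. The 4 that fell are 30.8% of the list, where 14.6% and 13.4% of all genes fell in those groups, and the 1 that rose is 7.69%, where 2.75% of all genes rose in PNA-10b and 15.2% in PNA-21 cells. TLR3, the endosomal sensor of double-stranded RNA, fell from 3.98 ± 0.469 CPM in control to 2.43 ± 0.345 CPM in PNA-21 and 2.28 ± 0.0530 CPM in PNA-10b+21 cells (adjusted p = 0.00374 and 0.00166). The DNA sensor AIM2 fell by 0.26 ± 0.06 and 0.29 ± 0.06 (adjusted p = 0.00374 and 0.00202), and the kinase IKBKE by 0.24 ± 0.07 and 0.20 ± 0.07 (adjusted p = 0.0171 and 0.0473). EIF2AK2 (PKR), which halts translation on double-stranded RNA, rose in PNA-21 cells by 0.22 ± 0.06 (adjusted p = 0.00656). Among 12 IRFs and brakes of the pathway none rose and 1 fell in PNA-10b, 2 rose and 1 fell in PNA-21, and 3 rose and 1 fell in PNA-10b+21 cells. In PNA-21 cells that is 16.7% higher and 8.33% lower, near or below the 15.2% and 14.6% of all genes. In PNA-10b+21 cells it is 25% higher and 8.33% lower, against 13.6% and 13.4% of all genes. In PNA-10b cells it is 0% higher and 8.33% lower, against 2.75% and 3.74% of all genes. The phosphatase PTPN1 rose by 0.19 ± 0.05 and 0.22 ± 0.05 (adjusted p = 0.00463 and 0.00207), and the deubiquitinase CYLD by 0.18 ± 0.05 and 0.14 ± 0.05 (adjusted p = 0.0104 and 0.0388). IRF5, low throughout, rose with both agents from 0.635 ± 0.0416 to 1.36 ± 0.253 CPM (adjusted p = 0.00889). SOCS3, an inhibitor of JAK signalling, fell in PNA-10b cells by 0.26 ± 0.06 (adjusted p = 0.0137).

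A list of 38 further interferon-stimulated genes, 31 of them tested, gave 2 lower and none higher in PNA-10b, 4 higher and 11 lower in PNA-21, and 2 higher and 9 lower in PNA-10b+21 cells, with median log2 changes of -0.07, -0.15 and -0.10. The shares lower were 6.45%, 35.5% and 29%, against 3.74%, 14.6% and 13.4% of all genes, and the shares higher 0%, 12.9% and 6.45%, against 2.75%, 15.2% and 13.6%. TRIM22, an antiviral ubiquitin ligase, fell in all 3 treatments, from 188 ± 5.76 CPM in control to 156 ± 5.12, 148 ± 11 and 139 ± 11.1 CPM (adjusted p = 0.0106, 0.000246 and 1.71e-05). GBP1, an interferon-induced GTPase, went from 24.8 ± 2.63 CPM to 16.3 ± 1.38 CPM in PNA-21 and 16.0 ± 2.03 CPM in PNA-10b+21 cells (adjusted p = 8.15e-05 and 4.97e-05). GBP3 fell with both agents by 1.00 ± 0.21 (adjusted p = 0.00126). TRIM14, an adaptor at mitochondria, rose by 0.32 ± 0.09 and 0.52 ± 0.09 (adjusted p = 0.013 and 0.000231).

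Library totals ran from 12846676 to 18305820 reads. The mesenchymal glioblastoma markers VIM, CD44, CHI3L1, FN1, SPARC and TNC summed to 20771 to 24546 CPM in control libraries and to 16634 to 19590 CPM in treated ones, and the astrocytic markers GFAP, S100B and OLIG2 to at most 6.39 CPM. Leukocyte markers, 9 of 11 matched, summed to 0.913 to 1.52 CPM in control, 0.626 to 1.35 CPM in PNA-10b, 1.86 to 3.76 CPM in PNA-21 and 1.35 to 1.7 CPM in PNA-10b+21 libraries. The highest single value was PTPRC at 1.98 CPM in a PNA-21 library, and CD3E was at 0 in all libraries but 1. The part of these markers in the results above was not tested.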

How the data were processed

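The authors deposited a table of raw read counts per gene for all 12 libraries. Per the labels' protocols, RNA was taken with a mirVana kit and libraries were made with the Illumina TruSeq Stranded mRNA kit. Per the submitters' processing notes, HISAT2 2.1.0, SAMtools 1.7, HTSeq 0.11.0 and hg38 were used. Neither the annotation nor the strand setting was given in the sources used here. No row lacked a gene name. Counts were fitted with edgeR 4.0.16 in R 4.3.3, in 1 quasi-likelihood fit over the 4 groups with TMM scaling. The filter filterByExpr (minimum count 10) kept 15715 genes with 99.8% of the reads and removed 20026. P-values were adjusted by Benjamini-Hochberg over all tested genes at a threshold of 0.05 for 7 comparisons, and standard errors came from the F statistics. CPM values use TMM library sizes, except those of the cell markers and the limits at a 0 count, which use raw library totals. RPKM values use the summed exon length of GENCODE 29. The fit was tested on simulated data. Replicates differed by more than sampling noise. The genes and lists were chosen with earlier results of these data known. Per-library values are given for genes called in any comparison, for the 3 highest by RPKM and for OAS1. Up to 4 genes per further list are named by smallest adjusted p. Alternatives were DESeq2 1.42.0, other scalings and filters, a replicate block, fits of the compared groups alone and leaving out each library. They were fitted to the whole table, but calls of single genes were followed for the 35 genes only. A gene of a further list is not reported here.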

Additional observations from a re-analysis of the deposited data

Results flagged for a closer look

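SAMD9L was the only gene of the 30 tested whose interaction term passed the threshold. For that term 5 of the 30 were at an unadjusted p under 0.05, where 18.7% of all tested genes were. Against control, sgPNA-21 changed SAMD9L by -0.88 ± 0.07 (log2, SE), and in cells that also received sgPNA-10b the change with sgPNA-21 was -0.47 ± 0.08. The difference, 0.40 ± 0.11, passed edgeR's test of the interaction (adjusted p = 0.0423), and mean levels were 41.1 ± 1.78 CPM in control, 30.4 ± 2.38 CPM in PNA-10b, 22.3 ± 1.13 CPM in PNA-21 and 22.0 ± 1.66 CPM in PNA-10b+21 cells (SD, n = 3). It missed the threshold when 1 of 8 libraries was left out, with adjusted p-values from 0.0618 to 0.127 and values from 0.35 to 0.44. Groups of 3 libraries were not examined for outlying samples.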

How the results depend on the processing

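No gene call changed sign in any alternative. Of 39 calls of single genes, 24 held under every alternative, and 648 of 701 pairs of a call and an alternative kept the call. The alternatives that left out no library kept 226 of 233. The number of genes of the set lower in PNA-21 cells was 11, and 9 with DESeq2, where over all genes it was 2296, and 1747 with DESeq2. Leaving out each library in turn gave 2 to 3 genes higher and 8 to 11 lower in PNA-21 cells, and 2 to 3 higher and 7 to 10 lower in PNA-10b+21 cells, against control. Over all genes the same fits gave 1650 to 2424 higher and 1758 to 2334 lower in PNA-21 cells. The all-gene count lower in PNA-10b+21 cells ran from 1414 to 2132. Within the set, PNA-21 against PNA-10b gave 0 to 2 higher and 1 to 4 lower, PNA-10b+21 against PNA-10b 1 to 2 higher and 1 to 3 lower, and the interaction 0 to 1 higher. Over all genes, the filter moved several counts: without it 690 genes in place of 432 were higher in PNA-10b cells, and 350 in place of 233 were higher and 724 in place of 258 lower for the interaction. Between PNA-10b+21 and PNA-21 cells the count of 0 became 32 higher and 300 lower without the filter, 27 lower with DESeq2, and 1 higher and 47 lower in a fit of those groups alone. The interaction cannot be fitted on 2 groups. Leaving out a library moved the all-gene counts as well: 98 to 576 higher and 208 to 676 lower in PNA-10b cells, 1334 to 2169 higher in PNA-10b+21 cells (2131 with all libraries, 1334 without PNA-10b+21 replicate 1), 194 to 481 higher and 351 to 685 lower for PNA-21 against PNA-10b (458 and 609, lowest without PNA-10b replicate 1), 193 to 772 higher and 339 to 915 lower for PNA-10b+21 against PNA-10b (724 and 801, lowest without PNA-10b+21 replicate 1), and 44 to 451 higher and 48 to 577 lower for the interaction (lowest without PNA-10b replicate 2, highest without control replicate 2).

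Replicate numbers are shared between groups. Over 18 same-numbered pairs the correlation of deviations ran from -0.06 to 0.11, with 1 pair over 0.1, and 6 of 12 libraries correlated best with their own number, so the numbers were not taken as pairing. With the replicate block, 3 genes in place of 2 were lower in PNA-10b cells, while 3 higher and 11 lower in PNA-21, and 3 higher and 10 lower in PNA-10b+21 cells, were as many as without it. Over all genes the block gave 376 lower in place of 258 for the interaction.

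Low counts limit the set. XAF1, MX1, OAS1, IRF9, ISG20 and USP18 had few reads and standard errors of 0.19 or more against control in PNA-21 cells, where that of SAMD9L was 0.07. The 5 untested genes include RSAD2, IFI27 and IRF7, which are widely used to read interferon activity, so the set says nothing on them beyond their low level. With 3 libraries per group and 1 cell line, spread between cultures is unknown.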
